A study of Mus musculus with 12 samples.

Results

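The genes described here are those whose probe never rose well above the noise of the array in any oocyte sample. Each such probe read a signal-over-noise score under 3 on every one of the 12 arrays where its spot was usable. In all there were 206 probes that carry a RefSeq messenger RNA identifier, 205 identifiers of 511. They were chosen from 516 probes with a RefSeq identifier, after 1 probe, for Eif4ebp1, was left out by rule. The array has 33012 gene probes in all. A RefSeq symbol was found for 110 of the 206 probes, which stand for 109 genes, and 96 probes had none in the reference table. Signal over noise is the signed score that the scanner software writes for each spot, its signal set against its error. Under a score of 1 it is not the ratio of the written values, since the software then writes the error as the signal. Spots with the software's bad-spot flag were treated as missing. The word silent is used only in this sense, of a probe not well above background, and every score of these probes is a description, since the score chose them.

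Mature mouse oocytes labelled Dicer knock-out (6 arrays) were compared with mature oocytes labelled Dicer wild-type (6 arrays). Digoxigenin-labelled copies of the total RNA were hybridised to 1-colour AB1700 mouse genome arrays, and the series' stated design sets messenger RNA beside microRNA expression in both genotypes. The labels call the material a single cell; the allele, any Cre driver, the strain, the age, the number of oocytes on an array and the number of mice are not stated in the sources used here. The p-values below therefore measure the spread between arrays, which may be technical, and the number of arrays limits their precision. Fewer transcripts per oocyte and a smaller input of RNA cannot be told apart, and neither can genotype and the order of the arrays, since the titles number the knock-out arrays ahead of the others. Dicer1 was not among the RefSeq probes with a symbol, so the deleted gene was not checked here.

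A fully grown oocyte is transcriptionally quiet and lives on messenger RNAs stored during growth, and Dicer cuts precursors into the small RNAs that repress part of that store. Genes for smell, taste, hair, milk, sperm tails, synapses and immune recognition are normally transcribed in a few specialised cell types. Many of them have promoters with few CG pairs (CpG), whereas most genes used by every cell start within CpG-rich stretches that lack DNA methylation.

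The promoters below show how far the silent genes differ in this respect. Olfr1294 encodes an odorant receptor, Krtap3-2 a protein of the hair shaft, Senp3 a protease that removes the SUMO tag and is broadly used, and Cebpb a transcription factor of stress and differentiation. Each line gives the 250 bases before the RefSeq start of the gene (build GRCm38.p6, strand of the gene, 5′ to 3′), and capitals mark CG pairs and TATAAA on either strand.
Olfr1294: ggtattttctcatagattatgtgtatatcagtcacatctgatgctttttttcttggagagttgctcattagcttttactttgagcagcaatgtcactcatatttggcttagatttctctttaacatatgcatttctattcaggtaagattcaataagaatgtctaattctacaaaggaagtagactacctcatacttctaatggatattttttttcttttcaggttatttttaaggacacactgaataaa
Krtap3-2: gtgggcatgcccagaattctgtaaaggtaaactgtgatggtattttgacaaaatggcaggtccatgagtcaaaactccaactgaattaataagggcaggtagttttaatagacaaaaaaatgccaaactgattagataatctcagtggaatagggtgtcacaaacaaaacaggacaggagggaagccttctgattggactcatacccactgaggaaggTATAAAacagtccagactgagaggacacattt
Senp3: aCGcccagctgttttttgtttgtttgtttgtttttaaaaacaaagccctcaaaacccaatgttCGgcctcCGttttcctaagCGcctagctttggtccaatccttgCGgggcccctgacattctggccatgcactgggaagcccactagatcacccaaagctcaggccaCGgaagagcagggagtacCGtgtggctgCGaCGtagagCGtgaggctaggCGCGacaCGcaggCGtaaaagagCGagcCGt
Cebpb: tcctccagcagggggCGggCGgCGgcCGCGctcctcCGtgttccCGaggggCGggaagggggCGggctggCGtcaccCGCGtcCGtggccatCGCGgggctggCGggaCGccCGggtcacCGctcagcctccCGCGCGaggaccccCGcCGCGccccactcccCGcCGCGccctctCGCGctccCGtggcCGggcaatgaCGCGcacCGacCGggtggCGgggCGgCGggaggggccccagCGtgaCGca
The Olfr1294 stretch, at chr2:111538288-111538537 on the minus strand, has 0 CG pairs and a GC content of 30.8%. The Krtap3-2 stretch, at chr11:99556854-99557103 on the minus strand, also has 0 CG pairs, and its TATAAA begins 32 bases before the start. The Senp3 stretch, at chr11:69682085-69682334 on the minus strand, has 16 CG pairs, and the Cebpb stretch, at chr2:167688665-167688914 on the plus strand, has 41 with a GC content of 81.6%. By these listed starts, the silent set thus holds both CpG-free and CpG-rich stretches. Cebpb belongs to the set by 1 probe only, as another Cebpb probe was above the limit on 8 arrays. Whether transcription begins at the listed starts was not checked.

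Promoter sequence was a property that the choice of probes did not use. Of the 109 silent genes with a symbol, 88 (80.7%) had an entry in the RefSeq promoter table, and 1 window per gene, from 250 bases before to 50 after the first listed start, was read. Their median ratio of observed to expected CpG was 0.238 (quartiles 0.125 and 0.60), against 0.751 (0.377 and 0.864) for 56 RefSeq genes above the limit on at least 6 arrays and 0.389 over all 27025 genes of the table. A ratio of at least 0.6 was found in 22 silent genes (25%), in 35 of the 56 genes above the limit (62.5%) and in 36.5% of all genes. The 22 include Cebpb and Ccl21b, each of which also had a probe above the limit. Both were counted only as silent genes. The 28 silent chemosensory receptor genes with a promoter entry, of 30, had a median of 0.130, none reached 0.6, and 8 had no CG pair at all. The other 60 silent genes with an entry had a median of 0.342, and 22 of them (36.7%) reached 0.6, beside 0.389 and 36.5% over all genes. Only 75.9% of these 79 genes had an entry, too few for a check of that group on its own. Genes above the limit on only 1 or 2 arrays lay between, with a median of 0.345 over 83 genes. No test was run on these shares, since genes are not replicates. The listed starts were not checked for any gene, the receptor genes included, so a window need not be the promoter in use.

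**Figure D1:**
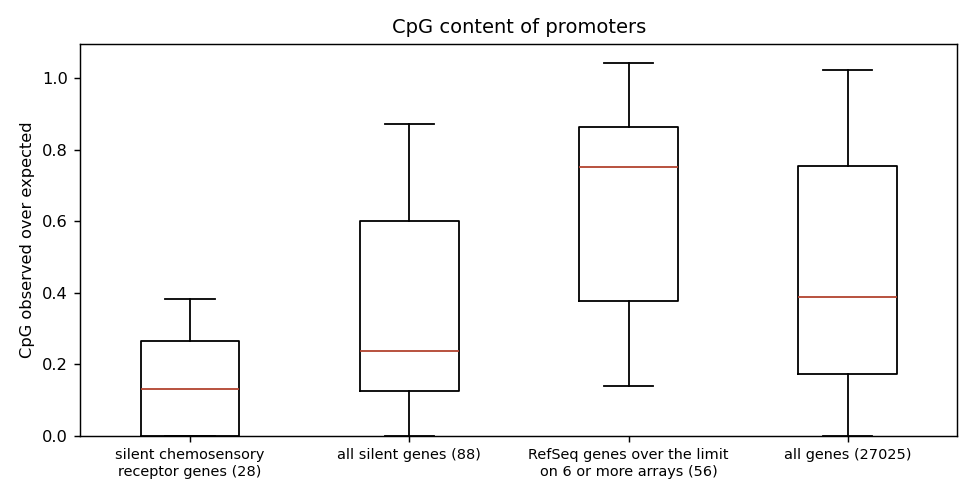
CpG observed over expected in promoter windows of 300 bases, for silent chemosensory receptor genes, all silent genes, RefSeq genes above the limit on 6 or more arrays and all genes of the table. Boxes span the quartiles with the median as a line, and whiskers run from percentile 5 to percentile 95; the silent chemosensory genes lie lowest, with a median of 0.130, and the genes above the limit highest, with 0.751.

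The letters TATAAA, on either strand of the window, occurred in 23 of the 88 silent genes (26.1%), in 13 of the 28 chemosensory genes (46.4%), in 5 of the 56 genes above the limit (8.93%) and in 14.2% of all genes. Among the other 60 silent genes it occurred in 10 (16.7%). On the strand of the gene and wholly within the stretch from 45 to 11 bases before the start, TATAAA was found in 2 silent genes (2.27%), Krtap3-2 being one of them, against 2.45% of all genes. TAATTG on either strand, a core sequence of homeodomain sites, occurred in 12 silent genes (13.6%), 8 of them chemosensory, and in 8.15% of all genes; outside the receptor genes it occurred in 4 of 60 (6.67%). The chemosensory windows also had a median GC content of 34.3%, against 52.7% over all genes, and letters rich in A and T are more frequent in such windows.

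Silence by this rule was common on the array. It held for 207 of 517 RefSeq probes (40.0%) when Eif4ebp1 was counted, for 12332 of 33011 gene probes with a usable spot (37.4%), and for 239 of 434 spots listed as negative controls (55.1%), many of which repeat 1 of 98 control names. Probes with Celera identifiers were silent in 35.4% of cases, and those with full-length cDNA identifiers that begin with AK or BC in 49.5% and 46.0%. A score of 3 on 1 or 2 arrays was also reached by 183 negative control spots, so that 97.2% of these spots were above the limit on at most 2 arrays and 0 of them on 12. Among RefSeq probes, 186 were above the limit on 1 or 2 arrays, 86 on 3 to 11 and 38 (7.35%) on all 12.

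**Figure D2:**
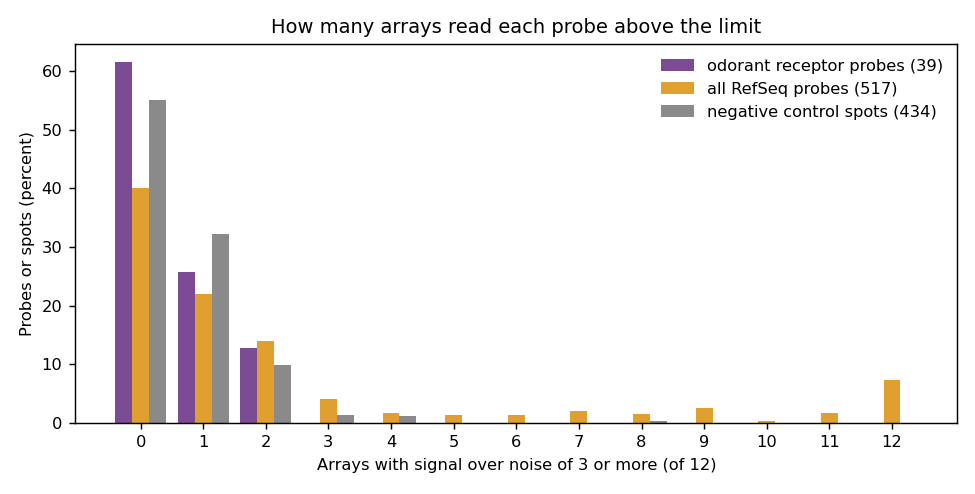
Percent of odorant receptor probes (39), RefSeq probes (517) and negative control spots (434), on the vertical axis, by the number of arrays with signal over noise of 3 or more. Odorant receptor probes and nearly all negative control spots stop at 2 arrays, while 7.35% of RefSeq probes stand at 12.

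Odorant receptors, G protein-coupled receptors of the olfactory epithelium, were the largest family, with 24 silent probes among 39 with an Olfr symbol (61.5%). These were Olfr62, Olfr141, Olfr347, Olfr370, Olfr378, Olfr380, Olfr697, Olfr799, Olfr800, Olfr906, Olfr921, Olfr969, Olfr982, Olfr983, Olfr1056, Olfr1097, Olfr1115, Olfr1122, Olfr1176, Olfr1228, Olfr1247, Olfr1252, Olfr1294 and Olfr1324. Chromosome 2 held 11 of them and chromosome 9 another 5. Direct neighbours among protein-coding genes were 3 pairs (Olfr799 and Olfr800, Olfr378 and Olfr380, Olfr982 and Olfr983). The places of the other odorant receptor genes were not counted, so these counts do not show that silent ones cluster. The highest score of each probe over the arrays ran from 0.18 for Olfr1294 to 2.93 for Olfr983, with a median of 2.15.

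Olfr983 read from -2.81 to 2.43 on the knock-out arrays (median 0.61) and from -2.51 to 2.93 on the wild-type arrays (median 1.99). Olfr1294 read from -0.99 to 0.18 on the knock-out arrays (median -0.51) and from -1.85 to 0.06 on the wild-type arrays (median -0.12). For both genes the genotypes overlapped over most of their range.

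The other 15 odorant receptor probes were above the limit on 1 array (10 probes) or 2 arrays (5 probes), and none on more. Their highest scores ran from 3.0 to 9.84 with a median of 3.54, within the span of the 183 negative control spots seen on 1 or 2 arrays, which ran from 3.0 to 24.5 with a median of 3.94. Between 0 and 3 odorant receptor probes were above the limit on a knock-out array and 1 or 2 on a wild-type array, 11 and 9 readings in total. On the knock-out arrays 31 of the 39 probes were silent throughout and on the wild-type arrays 30; 24 were silent on both, 77.4% of the knock-out count and 80.0% of the wild-type count.

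The vomeronasal receptors, which read pheromones, and the bitter taste receptors are related families of chemosensory receptors. Silent members were Vmn1r52, Vmn1r208, Vmn1r212, Vmn1r218 and Vmn1r230, with Vmn1r52 represented by a pair of silent probes, and Tas2r139. Vmn1r218 read from -1.51 to 2.66 on the knock-out arrays (median 0.16) and from -0.81 to 2.96 on the 5 usable wild-type arrays (median 1.02). Tas2r139 read from -1.47 to 0.60 on the knock-out arrays (median -0.19) and from -1.36 to 1.59 on the wild-type arrays (median -0.49). Of 12 Vmn1r probes 6 were silent, 5 were above the limit on 1 or 2 arrays, and Vmn1r148 was above it on 6 knock-out arrays and 1 wild-type array.

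Skin and hair genes were Krt23, an epithelial keratin, Krtap3-2 and Krtap6-1, keratin-associated proteins of the hair cortex, and Prr9, a proline-rich protein of skin. Krtap6-1 read from -0.80 to 1.88 on the knock-out arrays (median 0.21) and from -2.16 to -0.29 on the wild-type arrays (median -1.04). Prr9 read from -0.25 to 1.05 on the knock-out arrays (median 0.37) and from -1.33 to 0.24 on the wild-type arrays (median -0.23). In this group no probe passed a score of 2 on any array. The family was not uniform: 3 of 10 keratin and keratin-associated probes were silent, while Krtap3-3, from the same hair gene family as Krtap3-2, was above the limit on all 12 arrays with scores of up to 46.9, and Krtap9-3 on 7 arrays.

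Secretory genes of the mammary gland and other glands were Wap, a whey protein, Csn1s2a, a casein, and Mucl2, a mucin-like protein. Wap read from -2.44 to 1.65 on the knock-out arrays (median 0.59) and from -1.24 to 2.70 on the wild-type arrays (median 0.84). Csn1s2a read from -1.97 to 0.69 on the knock-out arrays (median 0.09) and from -1.92 to 0.61 on the wild-type arrays (median -0.44). Another casein, Csn2, was above the limit on 3 knock-out and 2 wild-type arrays, with a highest score of 5.61.

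Among testis and sperm genes stood Akap4, which anchors protein kinase A in the sperm tail, Tcte3, a dynein light chain, Rbmy, an RNA-binding protein encoded on the Y chromosome that oocytes lack, Shbg, the sex hormone binding globulin, and the testis genes Ccdc54, Tex46 and Slc35g3. Ccdc54 read from -0.95 to 2.0 on the knock-out arrays (median 0.64) and from -1.06 to 2.90 on the usable wild-type arrays (median 0.01). Tcte3 read from -1.92 to 0.80 on the knock-out arrays (median -1.08) and from -2.81 to 1.6 on the usable wild-type arrays (median 0.78). Both spans lay across 0 in both genotypes.

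Nervous system and retina genes were Snap25, of synaptic vesicle fusion, Scg2, a granin of secretory granules, Grm6, the glutamate receptor of retinal ON bipolar cells, Rgs9bp, which tethers a photoreceptor regulator, the neural transcription factors Pou3f3, Sox3 and Sox11, the adhesion proteins Pcdha3 and Amigo3, and the orphan receptor Gpr173. Amigo3 read from -0.70 to 2.89 on the knock-out arrays (median 0.18) and from -2.64 to 0.76 on the wild-type arrays (median -0.73). Snap25 read from -1.63 to 0.17 on the knock-out arrays (median -0.73) and from -0.83 to 0.42 on the wild-type arrays (median -0.07). All 3 Sox probes with a symbol were silent, the third being Sox15.

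Immune genes were Tlr7, a sensor of single-stranded RNA, Ifne, a type I interferon of the reproductive tract, Ifi202b and Trim34a, both interferon-inducible, Ccl21b, a chemokine of lymphoid tissue, H2-Q8, a class Ib histocompatibility gene, Art2b, an ADP-ribosyltransferase of T cells, and Gab2, a signalling adaptor. Gab2 read from -0.56 to 2.91 on the knock-out arrays (median 1.54) and from -1.13 to 2.24 on the wild-type arrays (median 0.45). Art2b read from -1.98 to -0.30 on the knock-out arrays (median -0.995) and from -2.71 to 1.45 on the wild-type arrays (median -1.24).

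H2-Q8 was the single member, of 206 (0.485%), whose knock-out and wild-type scores did not overlap, and it is named after its values were seen. It read -1.64, -0.32, -0.46, 0.44, 0.33 and 0.25 on the knock-out arrays, against 0.87, 0.85, 1.05, 0.93, 1.65 and 1.57 on the wild-type arrays. All 12 readings lay under the limit. Such separation was found in 33 of the 12332 silent gene probes (0.268%), in 1 of the 239 silent negative control spots (0.418%) and in 4.28% of all gene probes.

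Transcription factors outside the neural group were Jun, an early response factor, Cebpb and Sox15. Jun read from -1.55 to 1.75 on the knock-out arrays (median 0.85) and from 0.42 to 1.26 on the wild-type arrays (median 0.64), above 0 on 11 arrays but never near 3. Sox15 read from -0.75 to 1.23 on the knock-out arrays (median 0.26) and from -1.13 to 1.34 on the wild-type arrays (median 1.03).

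For Cebpb the score of 1 probe did not stand for the gene. Its silent probe read from -1.13 to 1.38 on the knock-out arrays (median 0.02) and from -0.57 to 2.20 on the wild-type arrays (median 0.76). Another probe with the same RefSeq identifier read 14.8, 18.7, 10.4, 11.5, 12.99 and 10.2 on the knock-out arrays, against -0.85, -1.23, 6.38, 0.11, 4.67 and -0.59 on the wild-type arrays. That probe was above the limit on 6 knock-out and 2 wild-type arrays, and the ranges did not overlap. Ccl21b likewise had a further probe, above the limit on 1 knock-out and 1 wild-type array, with a highest score of 3.82. These were the only genes with both a silent and a non-silent RefSeq probe; the sources used here do not state which part of the transcript each probe reads.

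**Figure D3:**
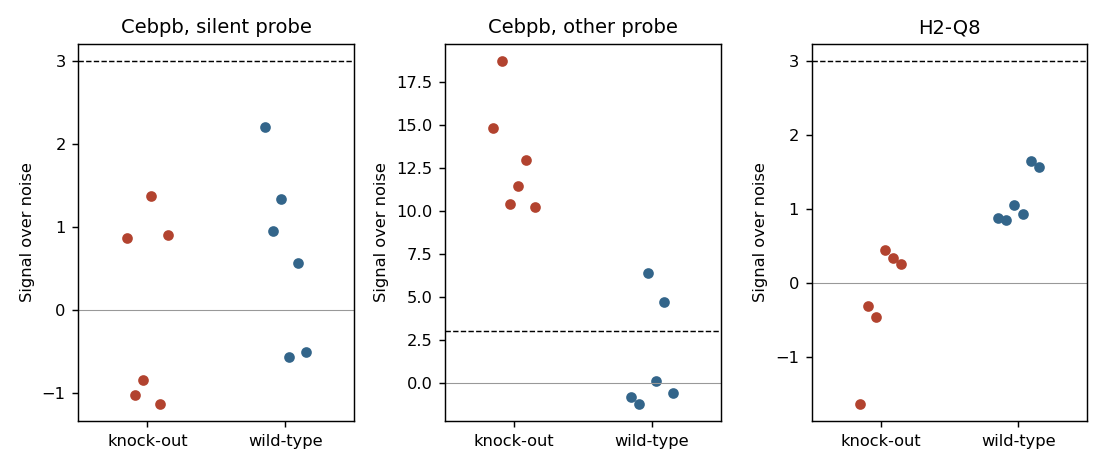
Signal over noise by array for the silent Cebpb probe, the other Cebpb probe and H2-Q8, with knock-out arrays on the left and wild-type arrays on the right of each panel; the dashed line is the limit of 3. The other Cebpb probe lies between 10.2 and 18.7 on the knock-out arrays, and H2-Q8 stays under the limit on every array although its genotypes do not overlap.

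Zinc finger proteins with silent probes were Zfp146, Zfp354b, Zfp870 and Zfp945, 4 of 7 Zfp probes. Zfp945 read from -1.05 to 2.94 on the knock-out arrays (median 0.43) and from -1.91 to 0.98 on the wild-type arrays (median -0.58). Zfp870 read from -2.47 to 0.85 on the knock-out arrays (median -1.41) and from -0.48 to 2.18 on the wild-type arrays (median 0.01). Zfp979, another Zfp gene, was above the limit on 5 knock-out arrays and 1 wild-type array.

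Genes of metabolism and transport were the aldehyde dehydrogenases Aldh3a1 and Aldh3b3, the amine oxidase Aoc3, the isoprenoid isomerase Idi2, the acetyltransferase-like Nat8f2, the purine nucleoside phosphorylase Pnp, the drug exporter Slc47a1, the potassium channel subunit Kcne4, the bile acid receptor Gpbar1 and the lipid kinase Dgkk. Aldh3a1 read from -1.56 to 1.43 on the knock-out arrays (median -0.25) and from -1.17 to 2.85 on the wild-type arrays (median -0.15). Nat8f2 read from -1.33 to 0.76 on the knock-out arrays (median -0.19) and from -1.38 to 0.23 on the wild-type arrays (median -0.70). Aoc3 was above 0 on 11 arrays but under 2 on each, reading from 0.47 to 1.66 on the knock-out arrays and from -1.24 to 1.54 on the wild-type arrays.

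The silent set was not limited to genes of specialised tissues. Probes for 10 genes of broad cell functions belonged to it: Senp3, the deubiquitinase Otub1, the endosomal sorting subunit Vps25, the Golgi adaptor Gga1, the autophagy factor Smcr8, the Fanconi anaemia ubiquitin ligase Fancl, the small GTPases Rap2b and Rasd1, the galectin Lgals1, and Gnas, which encodes the stimulatory G protein subunit that keeps mouse oocytes in meiotic arrest. Gnas read from -2.77 to 0.97 on the knock-out arrays (median -0.94) and from -1.84 to 2.57 on the wild-type arrays (median 0.25). Which Gnas transcript this probe reads is not stated in the sources used here, so its score need not stand for the gene. Senp3 read from -1.32 to 0.67 on the knock-out arrays (median -0.03) and from -2.60 to 2.99 on the wild-type arrays (median -0.22), the closest approach to the limit in the set. Rasd1 read from -1.44 to -0.04 on the knock-out arrays (median -0.70) and from -2.06 to -0.15 on the wild-type arrays (median -0.62), and was 1 of only 2 members never above 0.

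Tdpoz1, a gene of a family transcribed in early mouse embryos, read from -0.58 to 2.92 on the knock-out arrays (median 0.92) and from -0.92 to 1.42 on the wild-type arrays (median -0.08). Rtl6, derived from a retrotransposon, read from -1.57 to 2.71 on the knock-out arrays (median -0.12) and from -0.82 to 1.68 on the wild-type arrays (median -0.16). The remaining 18 named genes were put in no group: 2700081O15Rik, 4930433I11Rik, 4930555G01Rik, 9130023H24Rik, A430057M04Rik, C130050O18Rik, Dcaf12l2, Epdr1, Fhl3, Lgals2, Mapk1ip1l, Nt5dc3, Prss27, Sh3bp1, Sowahc, Spin4, Tigd5 and Tnfaip8l1. Their highest scores ran from 0.71 to 2.88, and those of the 96 probes without a symbol from -0.11 to 2.97 with a median of 2.20.

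**Figure D4:**
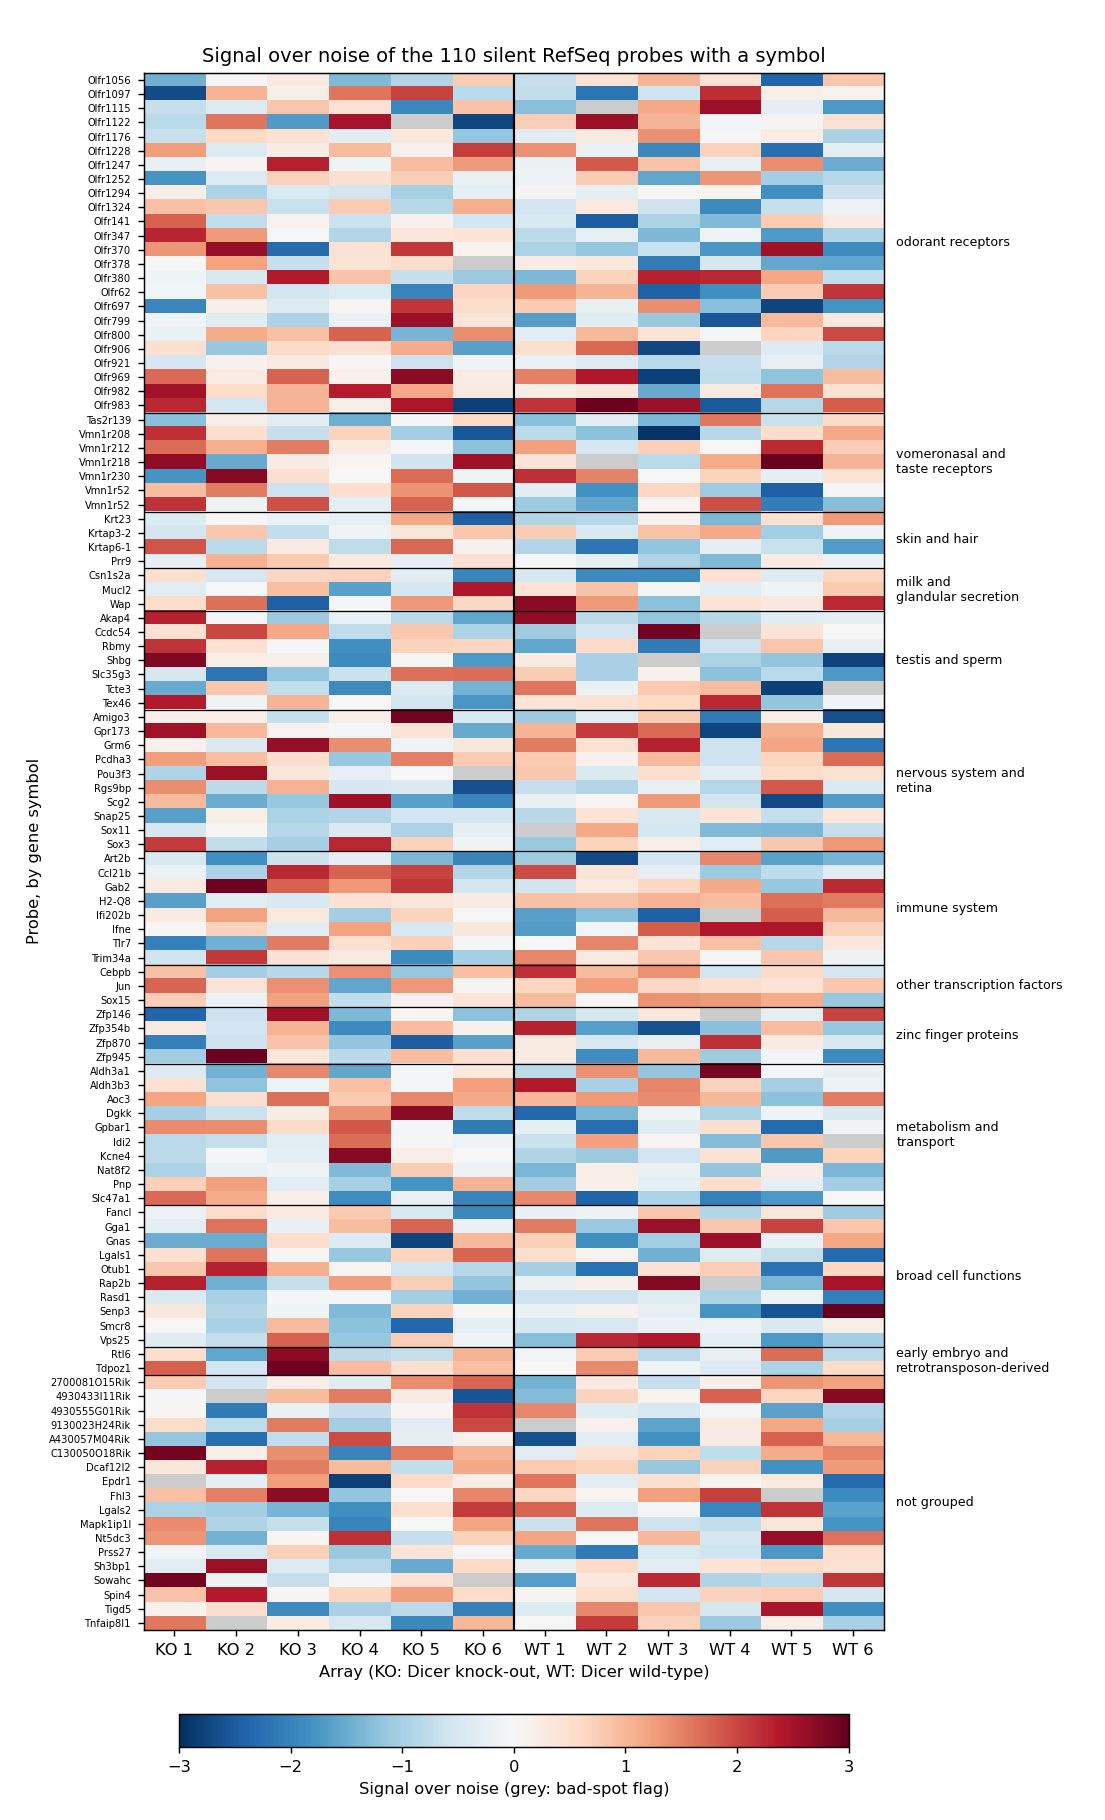
Signal over noise of the 110 silent probes with a symbol (rows, by group) on 6 knock-out arrays (left) and 6 wild-type arrays (right), from -3 in blue to 3 in red, with flagged spots in grey. Positive and negative scores are mixed within nearly every row, and H2-Q8 is the single row whose genotypes do not overlap.

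The scores of the silent probes were spread about 0, as were those of control spots that passed the same rule. The mean score of a member over its usable arrays ran from -1.15 to 1.05 with a median of -0.02, and that of the 239 silent negative control spots from -1.56 to 0.87 with a median of -0.14. A highest score between 2 and 3 was reached by 126 members (61.2%), against 104 control spots (43.5%). Scores above 0 on at least 10 arrays were seen in 7 members (3.40%), with 11 arrays each for Jun, Aoc3 and Olfr982 and 10 each for the others, and in 4 control spots (1.67%). No member and no control spot was above 0 on all 12.

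The threshold cut through a continuous range of scores. Just inside it lay Senp3 with a highest score of 2.99, Vmn1r218 with 2.96 and probes without a symbol with 2.97, 2.96 and 2.95. Just outside it lay Olfr1243 with 3.0, AY074887 with 3.02, Skint3, of a gene family of skin and thymus, with 3.03, and probes without a symbol with 3.03 and 3.04, each on 1 array only.

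The knock-out arrays held fewer silent RefSeq probes than the wild-type arrays. On average 395 ± 12.1 of the 517 probes were under the limit on a knock-out array, from 378 to 413, against 429 ± 13.8 on a wild-type array, from 411 to 440 (SD, n = 6 each). The difference was -34.3 probes (exact two-sided permutation test, p = 0.00649, adjusted over 3 array measures 0.0195), and the ranges overlapped slightly. The silent genes add the same number to every array, so the difference lay wholly in the other RefSeq probes: 108 were silent on all wild-type arrays and above the limit on at least 1 knock-out array, 72 the other way round. Among RefSeq probes silent in 1 genotype, 18 were above the limit on 3 or more knock-out arrays. On 3 or more wild-type arrays there was 1. For negative control spots there was 1 in each direction, and for odorant receptors 0. The lean was not particular to RefSeq probes. Over all 33011 gene probes, 6728 were silent on the wild-type arrays only and 4266 on the knock-out arrays only, with 1111 against 89 on 3 or more arrays. Silence on all 6 knock-out arrays held for 54.0% of RefSeq probes and 50.3% of all gene probes. On all 6 wild-type arrays it held for 60.9% and 57.7%.

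The signal at which a probe reached the limit differed by less than the spread between arrays. Taken as the median log2 signal of other gene probes with a score between 2.5 and 3.5, it was 8.87 ± 0.23 on the knock-out arrays and 8.77 ± 0.23 on the wild-type ones (SD, n = 6 per genotype), a difference of 0.10 (exact two-sided permutation test, p = 0.452, adjusted p = 0.452). The direction turned with scaling, to -0.72 with the software's normalized signal and -0.59 after quantile normalization (exact permutation test, p = 0.00216 for each). On the linear scale the limit lay at an intensity of 474 ± 73.9 on the knock-out arrays and 441 ± 65.2 on the wild-type arrays. The share of negative control spots above the limit was 5.68% ± 1.30 on the knock-out arrays and 4.77% ± 1.39 on the wild-type ones (SD, n = 6 per genotype), a difference of 0.92 percentage points (exact two-sided permutation test, p = 0.292, adjusted p = 0.438). Brightness did move with genotype: the median log2 signal of the 2979 gene probes above the limit on all 12 arrays was 13.95 ± 0.49 on the knock-out arrays and 12.49 ± 0.50 on the wild-type arrays. Its part in the count of silent probes was not tested.

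**Figure D5:**
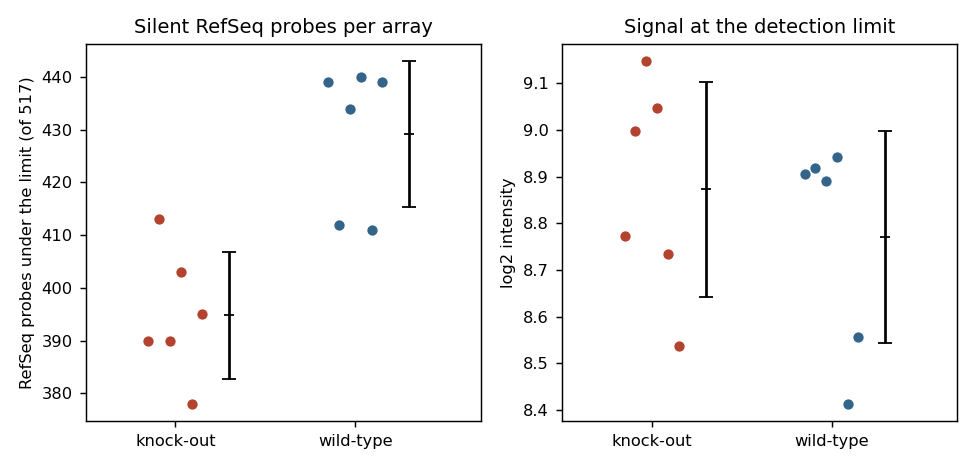
Left, RefSeq probes under the limit per array, of 517; right, the log2 intensity at the detection limit per array. Each point is an array, with knock-out on the left and wild-type on the right, and bars show mean and SD (n = 6 each); the counts average 395 and 429, the limits 8.87 and 8.77.

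Without a filter on dim probes, limma called 2868 of 33011 gene probes at an adjusted p under 0.05 (8.69%), and 2 of the 206 silent probes (0.971%), both lower in the knock-out arrays. They were H2-Q8 (limma, adjusted p = 0.000501) and the probe with the identifier NM_176907, which has no symbol (limma, adjusted p = 0.00854). H2-Q8 reached a score of 1 on only 3 arrays, and its highest knock-out score was 0.44. At an unadjusted p under 0.05 limma gave 11 members (5.34%), against 18.9% of all gene probes. The members were chosen for low scores in both genotypes, so their lower shares are no result about these genes. The calls moved with the scaling: H2-Q8 was not called with the authors' deposited values, and NM_176907 neither with those values nor after median centring. With the software's normalized signal limma called 28 members (13.6%), all lower in the knock-out arrays, against 18.4% of all gene probes. No fold change is given, because both genotypes were under the limit on every array. The software also writes the error in place of the signal wherever the score is under 1, so that the fit compares noise there.

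Marker genes of several tissues were looked up among the named probes. The lists were written with earlier results of these data known, so the readings are no check of the tissue label. Of 20 oocyte markers 5 had a RefSeq probe with a symbol, and none was silent: Obox1, Obox2, Obox3 and Cphx1, oocyte homeobox genes, were above the limit on all 12 arrays and Mos, the kinase that arrests mature oocytes in meiosis, on 6 knock-out and 5 wild-type arrays. Sfrp4, the single named marker of 13 for cumulus and granulosa cells, was above the limit on 1 knock-out and 0 wild-type arrays, the blood marker Hba-a1, named of 8, on 1 of each, and the liver marker Mup1, named of 5, on 2 knock-out and 0 wild-type arrays. None of the sperm and testis markers had a RefSeq probe with a symbol.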

How the data were processed

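Mature mouse oocytes were profiled on 12 arrays, 6 per genotype, grouped by the labels' titles. The array type was Mouse Genome Survey Microarray 1.0 and the scanner ran AB1700 software 1.1.1, per the file headers. For each spot the deposited scanner files give a linear intensity and its error, an intensity scaled by the software, a score of signal over noise, and other values, among them quality flags. How the authors made the intensity values of their deposited series table is not stated in the sources used here. The intensity is written as its error in 100% of 227061 gene spots with a score under 1, whereas the score itself is signed.

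Spots flagged at 5000 or above were treated as missing. Such flags marked 99.3% of 4786 gene spots with a score of -3 or less and 0.0562% of the rest, so scores of silent probes are bounded on both sides. They removed 36 of 2472 member spots, 35 of them at -3 or less and 1 at 3 or more, from 35 members. The probe with that last spot belongs to the set only because the spot was flagged.

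RefSeq identifiers, without version, were matched to the RefSeq gene table, which named 311 of 517 probes. Members, lists and tests were chosen with earlier results of these data known, and genes were put in groups by name with the silent list in view. All members of groups of at least 3 were named. Values were given for those with the highest and lowest maximum score of each group and for 5 probes on either side of the limit. They were also given for genes with a silent and a non-silent probe. Others were said to be chosen after their values were seen, or were named for their role (Gnas, Tdpoz1, Rtl6) or for scores above 0 on 11 arrays (Jun, Aoc3).

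Array measures were set against genotype by exact two-sided permutation tests (scipy 1.17.1, Python 3.11.15), whose smallest p is 0.00216, with Benjamini-Hochberg adjustment over 3. The negative control measure was added after seeing the data. Signals were quantile-normalized, log2-transformed and compared in R 4.3.3 by limma 3.58.1 (lmFit, eBayes), adjusted over 33011 probes; the fit was tested on simulated data. Promoters came from RefSeq (GRCm38.p6). Figures were drawn with matplotlib 3.10.9.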

Additional observations from a re-analysis of the deposited data

Results flagged for a closer look

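In 54 groups of 6 array values of silent genes that were searched, 3 were flagged for 1 array far from the other 5, and chance gives about 1 in 20. Amigo3 read 2.89 on knock-out array 5, while the other knock-out arrays read from -0.70 to 0.21. Olfr1294 read -1.85 on wild-type array 5, while the other wild-type arrays read from -0.61 to 0.06. Zfp870 read 2.18 on wild-type array 4, while the other wild-type arrays read from -0.48 to 0.26. All 3 readings lay under the limit of 3. The list is not complete for every gene given with values here. Aoc3, which it leaves out, read -1.24 on wild-type array 5, while the other wild-type arrays read from 0.99 to 1.54.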

How the results depend on the processing

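The number of silent RefSeq probes, 206, depends on the limit: 80 probes were silent at a limit of 2, 324 at 5 and 413 at 10. Allowing 1 array above the limit gave 320 probes, and allowing 2, an alternative chosen after seeing the data, gave 392. Keeping flagged spots gave 205, requiring a usable spot on all 12 arrays gave 171, and leaving out 1 array at a time gave 212 to 219. The lower number of silent probes on knock-out arrays kept its direction and side of the threshold in all 4 alternatives run, with differences from -35.8 to -24.7. The difference in detection limit, 0.10 on raw signals, was -0.72 with the software's normalized signal and -0.59 after quantile normalization (exact permutation test, p = 0.00216 for each); quantile normalization gives all arrays 1 distribution, and for the software's scaling the cause was not tested. It was 0.03 relative to the hybridisation controls. The difference in negative control spots above the limit turned to -0.0787 percentage points at a limit of 5, also chosen after seeing the data (exact permutation test, p = 0.714); the cause was not tested. limma called 28 silent probes (13.6%, against 18.4% of all probes) with the software's normalized signal, which moved the median log2 difference of all probes to -0.56, and 0 when probes had to be above the limit on at least 6 arrays, since none was then tested. Median centring and the deposited table gave 3 each (1.46%, against 10.5% and 14.4% of all probes) and cyclic loess 2 (0.971%, against 8.72%); H2-Q8 was lower under centring and loess and not among the 3 of the deposited table. No paired analysis was possible because the labels give the arrays no shared replicate numbers.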

Other observations

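Olfr982, an odorant receptor gene, and Spin4, of the spindlin family of histone readers, were the silent genes called higher in the knock-out arrays by limma under more than 1 scaling. After median centring their adjusted p was 0.0329 for Olfr982 and 0.0419 for Spin4, and with the authors' deposited values it was 0.00736 for Olfr982 and 0.0103 for Spin4; neither was called after quantile normalization or cyclic loess. Both scalings that called them gave mostly higher calls over all gene probes: 3262 higher and 201 lower after median centring (10.5% called), and 4649 higher and 115 lower with the deposited values (14.4% called). Olfr982 read 2.51, 0.56, 1.01, 2.35, 1.13 and 0.28 on the knock-out arrays, against 0.18, 0.34, -1.52, 0.25, 1.63 and 0.46 on the wild-type arrays, and the genotypes overlapped. Spin4 read from 0.05 to 2.37 on the knock-out arrays and from -0.57 to 0.74 on the wild-type arrays, also with overlap. A score of 1 was reached on 5 arrays for Olfr982 and on 2 for Spin4. Below that score the software writes the error as the signal, so the median-centred fit compares noise there.

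The pair of silent Vmn1r52 probes had readings of opposite sign on 5 of 12 arrays. The first read from -0.63 to 1.87 on the knock-out arrays (median 1.14) and from -2.46 to 0.63 on the wild-type arrays (median -0.71). The second read from -0.29 to 2.17 on the knock-out arrays (median 0.85) and from -2.07 to 1.94 on the wild-type arrays (median -1.17). Both medians were above 0 on the knock-out arrays and below 0 on the wild-type arrays, and for both probes the genotypes overlapped. Medians of the same signs were seen in other members, among them Amigo3, Prr9 and Krtap6-1. A mean score higher on the knock-out arrays was found in 109 of 206 members (52.9%). These signs are therefore no result about Vmn1r52.

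Outside the receptor families, 3 pairs of silent genes were direct neighbours among protein-coding genes. They were Kcne4 and Scg2 on chromosome 1, and Lgals2 with Gga1 and Gga1 with Sh3bp1, a single run on chromosome 15. How many such pairs other sets of genes hold was not counted, so these pairs do not show that silent genes cluster.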
